A study of Mus musculus with 9 samples.

Results

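This report covers 10 genes that write, copy or erase DNA methylation or that form the core of Polycomb repressive complex 2 (PRC2), in 9 mouse mammary tumours. The genes were chosen by their known function, with earlier results of these data known. They are *Dnmt1*, *Dnmt3a* and *Dnmt3b* (DNA methyltransferases), *Uhrf1* (the partner of DNMT1), *Tet1*, *Tet2* and *Tet3* (methylcytosine dioxygenases) and *Ezh2*, *Suz12* and *Eed* (the PRC2 core). Of these, 9 were among the 14108 genes listed and passed the filter on low counts, as did 14086 of all listed genes. *Tet1* was not analysed here.

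The tumours belonged to 3 groups of 3, named HR1, LM1 and LM9. HR1 is a cell line from a mammary tumour of a transgenic mouse that expresses *PIK3CA* with the H1047R mutation under the ubiquitous CAG promoter, and all groups share this transgene. LM1 and LM9 are lines from metastases to the lung, formed by HR1 cells into which a doxycycline-inducible *piggyBac* transposon had been brought, so each group rests on the cells of 1 line. In each case 250000 cells were placed in the mammary fat pad of female NOD/SCID mice aged 4 to 8 weeks, hosts that lack T and B cells but keep other leukocytes. Tumours were taken before 1500 mm3, and mRNA of the sorted GFP-positive cells was sequenced. The labels number the tumours of each group from 1 to 3 and do not say whether they came from separate cultures, so p-values measure the spread between these tumours.

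Methylation of cytosine in CG dinucleotides is laid down by DNMT3A and DNMT3B and copied to the new strand at replication by DNMT1, which UHRF1 brings to half-methylated sites. TET enzymes oxidize methylcytosine, the first step of its removal. PRC2 methylates a lysine in the tail of histone H3 and thereby keeps developmental genes silent. Its catalytic subunit is EZH2 or the related EZH1, SUZ12 and EED hold the complex together, and EED also binds the mark. In tumours *Dnmt1*, *Uhrf1* and *Ezh2* are known as genes that are transcribed most in dividing cells.

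Gene positions are given on GRCm38, and counts cover all their annotated exons, untranslated regions included. *Dnmt1* is at chr9:20907206-20959888, *Uhrf1* at chr17:56303337-56323486, *Dnmt3a* at chr12:3801559-3914443 and *Dnmt3b* at chr2:153649411-153687730. *Tet2* is at chr3:133463677-133545136 and *Tet3* at chr6:83362373-83457208. The PRC2 genes are at chr6:47530274-47595270 (*Ezh2*), chr11:79993106-80034123 (*Suz12*) and chr7:89954654-89980976 (*Eed*).

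Total counts on genes lay between 32393958 and 46681945 per tumour, so 3 counts correspond to 0.0643 to 0.0926 before TMM correction on the CPM scale (counts scaled to library size, in all later values also corrected with TMM factors). Counting error weighs most on *Dnmt3b*, which had 35 to 70 counts per tumour, and on *Tet2* in HR1. The tumour labelled HR1 replicate 1 stood apart. Its log2 CPM correlated with those of the other HR1 tumours at 0.891 and 0.878 across genes, against 0.961 between those and at least 0.986 within LM1 and within LM9. It also had 1343 CPM of *Nfib*, the gene by which the study classed the models, where HR1 replicates 2 and 3 had 23.9 and 18.3 CPM and the LM tumours 420.6 to 791 CPM. It was kept under its label, and results are also given without it. Of the epithelial markers (7 of 12 tested) *Epcam* lay at 0.0254 to 4.49 CPM and *Cdh1* at 0.0916 to 1.197 CPM, and the list, carried mostly by *Krt14* in LM1, summed to 7.68 to 121 CPM in HR1, 158 to 181 CPM in LM1 and 14.5 to 18.4 CPM in LM9. The 10 fibroblast genes summed to 23420 to 35250 CPM in HR1, 10400 to 13830 CPM in LM1 and 8976 to 10550 CPM in LM9. The summed leukocyte genes (10 of 12 tested) lay at 174 to 722 CPM in HR1, 146 to 157 CPM in LM1 and 196 to 233 CPM in LM9. The higher sum in LM9 than in LM1 came from *Cd68* (107 to 138 CPM against 15.9 to 17.9 CPM), and 8 of the 10 genes had a log2 fold change under 0 in LM9 versus LM1, with a median of −0.55. For endothelial genes (9 of 10 tested) the sums were 17.3 to 46.6, 172 to 234 and 263 to 300.2 CPM, a rise carried by *Cdh5* and *Kdr* alone. With both LM models against HR1 all 9 were called, these 2 higher and the other 7 lower, with a median log2 fold change of −1.62. Of all genes 43.6% were called there, 19.9% higher and 23.6% lower. In LM1 and in LM9, 6 of the 9 endothelial genes averaged under 1 CPM. The part of these markers in the results below was not tested, and in bulk RNA fewer cells of a type and less RNA per cell cannot be told apart.

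The start regions of the 10 genes were searched for 2 motifs. RefSeq start windows on GRCm38.p6 (the same build as mm10), from 250 bases before to 50 bases after each start, were found for all 10 genes, with more than 1 start for *Dnmt1*, *Dnmt3a* and *Uhrf1*. The letters TTTGGCGC or TTTCGCGC, a site type of the E2F factors that drive S phase genes, were searched on both strands, and so was CCAAT, the site of the factor NF-Y. No E2F-type match overlapped a CCAAT match. An E2F-type match stood in a window of *Dnmt1*, *Uhrf1* and *Ezh2*, that is in 3 of 10 genes, against 1.74% of the 11094 tested genes that have a window and 0.813% of all 32851 windows. Of 20 genes of a cell division list with a window, 6 had such a match. CCAAT is common, in 37.4% of all windows and 42.8% of tested genes, and was found in 6 of the 10 genes (*Dnmt1*, *Uhrf1*, *Tet3*, *Ezh2*, *Suz12* and *Eed*). These matches are letters in a window and not evidence of binding. They are given here with up to 11 bases on either side, 5′ to 3′ along the gene, with the match in capitals.
*Dnmt1*, upstream E2F-type match (chr9:20952824-20952853, minus strand): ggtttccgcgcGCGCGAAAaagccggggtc
*Dnmt1*, downstream E2F-type match (chr9:20952574-20952601, minus strand): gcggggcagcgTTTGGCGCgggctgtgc
*Uhrf1*, E2F-type match (chr17:56304117-56304146, plus strand): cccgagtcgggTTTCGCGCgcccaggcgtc
*Ezh2*, E2F-type match (chr6:47595009-47595038, minus strand): gggttgctgcgTTTGGCGCtcggtccggtc
*Ezh2*, CCAAT match nearest the start (chr6:47595026-47595052, minus strand): aagcgatggcgATTGGgttgctgcgtt

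The upstream 250 bases are shown in full for 3 genes, as examples of a start region with both motifs (*Uhrf1*, second start), with CCAAT alone (*Suz12*) and with neither (*Tet2*). Matches are in capitals. The 300-base window of *Tet2* holds 57 CG dinucleotides, more than any other window of the 10 genes, against 33 for this *Uhrf1* start and 41 for *Suz12*.
*Uhrf1* (chr17:56304063-56304312, plus strand): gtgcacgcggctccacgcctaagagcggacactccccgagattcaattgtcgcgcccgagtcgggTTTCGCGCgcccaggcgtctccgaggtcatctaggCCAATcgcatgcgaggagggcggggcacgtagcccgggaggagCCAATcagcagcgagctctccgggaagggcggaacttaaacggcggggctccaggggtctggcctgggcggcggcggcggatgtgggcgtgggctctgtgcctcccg
*Suz12* (chr11:79992856-79993105, plus strand): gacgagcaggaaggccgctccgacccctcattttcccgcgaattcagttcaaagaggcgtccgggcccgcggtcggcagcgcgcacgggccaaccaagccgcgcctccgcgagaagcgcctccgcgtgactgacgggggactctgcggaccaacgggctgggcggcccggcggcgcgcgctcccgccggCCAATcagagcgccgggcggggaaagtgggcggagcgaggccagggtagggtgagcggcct
*Tet2* (chr3:133544391-133544640, minus strand): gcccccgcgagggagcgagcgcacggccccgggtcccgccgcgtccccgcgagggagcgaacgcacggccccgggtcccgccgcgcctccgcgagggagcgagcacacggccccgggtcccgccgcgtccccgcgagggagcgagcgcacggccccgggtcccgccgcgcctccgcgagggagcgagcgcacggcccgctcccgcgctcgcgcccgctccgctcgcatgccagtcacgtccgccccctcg

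Maintenance methylation. *Dnmt1* was higher in both LM models. It had 48.9, 47.4 and 45.6 CPM in HR1 replicates 1, 2 and 3, then 100.9, 115.7 and 82.3 CPM in LM1 and 95.3, 100.9 and 85.9 CPM in LM9. Every LM tumour lay above every HR1 tumour, and HR1 replicate 1 was like the other HR1 tumours here. Group means were 99.6 ± 16.7 in LM1 and 94.0 ± 7.59 in LM9 against 47.3 ± 1.66 CPM in HR1 (mean ± s.d., n = 3 each). Against HR1, LM1 was higher by 1.07 on the log2 scale (SE 0.15, adjusted p = 0.00111) and LM9 by 0.99 (SE 0.15, adjusted p = 0.00131), in the quasi-likelihood test of edgeR, where p-values were adjusted over all tested genes by the method of Benjamini and Hochberg. SE is the standard error of a log2 fold change, and a gene is called where its adjusted p is under 0.05. Between LM9 and LM1 the difference was −0.08 (SE 0.15, edgeR adjusted p = 0.711). Both rises were called in each of the 9 fits that left out a tumour, with a range of 0.941 to 1.195 in LM1 and 0.92 to 1.05 in LM9.

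*Uhrf1*, whose product recognizes the half-methylated site and recruits DNMT1, was also higher in LM1, with less certainty. HR1 tumours spread widely, at 25.6, 45.6 and 61.9 CPM, against 79.8, 84.6 and 72.1 CPM in LM1 and 59.6, 72.3 and 66.6 CPM in LM9. All LM1 tumours were above all HR1 tumours, while LM9 replicate 1 was below HR1 replicate 3. *Uhrf1* differed from HR1 by 0.83 on the log2 scale in LM1 (SE 0.27, edgeR adjusted p = 0.043) and by 0.58 in LM9 (SE 0.27, edgeR adjusted p = 0.118). The LM1 call was lost in 7 of the 9 fits that left out a tumour (edgeR adjusted p = 0.0638 to 0.124) and in the fit of only the 6 tumours compared (adjusted p = 0.106). It was kept without HR1 replicate 1 (log2 fold change 0.56) and without HR1 replicate 3 (1.15). In LM9 the value was 0.30 without HR1 replicate 1, and without HR1 replicate 3 it was 0.89 and past the threshold (edgeR adjusted p = 0.0195). Of the 30-base windows of its transcripts, 24.9% also occur in transcripts of 3 other annotated genes, so its counts are uncertain to that extent.

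De novo methylation. For the de novo enzymes no difference from HR1 was called. *Dnmt3a* had 19.09, 30.7 and 26.6 CPM in HR1, 18.1, 25.7 and 12.04 CPM in LM1 and 20.3, 21.2 and 15.7 CPM in LM9, and the groups overlapped. Its log2 fold change was −0.45 (SE 0.29, edgeR adjusted p = 0.254) in LM1 and −0.42 (SE 0.29, edgeR adjusted p = 0.275) in LM9 versus HR1. *Dnmt3b* had the lowest level of the 9 genes per kilobase in the mean over all tumours, though in HR1 *Tet2* was lower (0.146 against 0.266 CPM per kilobase), and 13.7% of the 30-base windows of its transcripts also occur in 1 other gene. It lay between 1.03 and 1.63 CPM in all 9 tumours, and its log2 fold changes were 0.14 in LM1 and −0.21 in LM9 (SE 0.32 each), neither past the threshold. Per kilobase of exons, *Dnmt1* exceeded *Dnmt3a* 3.48 to 5.79 times in HR1 tumours, 10.1 to 15.4 times in LM1 and 10.6 to 12.3 times in LM9, without overlap between HR1 and the LM tumours.

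Oxidation of methylcytosine. *Tet2* showed the largest difference of the 9 genes, and it was in LM9. HR1 tumours had 1.16, 3.24 and 2.99 CPM (35, 144 and 116 counts), LM1 tumours 6.07, 8.54 and 2.62 CPM, and LM9 tumours 41.3, 20.5 and 19.8 CPM (1922, 896 and 880 counts). Each LM9 tumour was above every other tumour, with LM9 replicate 1 at about the sum of the other LM9 tumours, while LM1 overlapped HR1. LM9 exceeded HR1 by 3.46 on the log2 scale (SE 0.57, edgeR adjusted p = 0.00204), and it was 3.03 to 3.70 and called in all 9 fits that left out a tumour. In LM1 versus HR1 it was 1.21 (SE 0.53, edgeR adjusted p = 0.103). LM9 exceeded LM1 by 2.24 (SE 0.54, edgeR adjusted p = 0.0201), a call that was lost without LM1 replicate 1 (2.28, adjusted p = 0.076), without LM1 replicate 3 (1.90, adjusted p = 0.0646) or without LM9 replicate 1 (1.81, adjusted p = 0.0833). Of the 10 tested genes nearest to *Tet2* on chromosome 3, 5 on each side, 3 were called in LM9 versus LM1 (22% of all genes), with a median log2 fold change of 0.12, and 4 in LM9 versus HR1 (42.3% of all genes), with a median of −0.77.

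*Tet3*, whose mean level per kilobase was above that of *Tet2* over the 9 tumours, had 17.3, 15.8 and 19.5 CPM in HR1, 23.7, 34.3 and 15.2 CPM in LM1 and 42.4, 41.7 and 28.1 CPM in LM9. All LM9 tumours were above all HR1 tumours, and LM1 lay on both sides of them. Its change against HR1 was 1.09 in LM9 (SE 0.29, edgeR adjusted p = 0.0169) and 0.48 in LM1 (SE 0.29, edgeR adjusted p = 0.227). Without LM9 replicate 1 (0.99, edgeR adjusted p = 0.0617) or LM9 replicate 2 (0.99, adjusted p = 0.0637) the call in LM9 was lost. The ratio of *Tet3* to *Tet2* per kilobase was 4.91 to 15 in HR1, 3.94 to 5.88 in LM1 and 1.04 to 2.05 in LM9.

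Exon length moved with these differences. *Dnmt3a*, *Tet2* and *Tet3* have 16642, 16870 and 16695 bases of exons. The 691 genes with over 12 kb of exons and at least 1 CPM had a median log2 fold change of 0.43 in LM9 versus HR1 and 0.38 in LM9 versus LM1, and the 1455 genes of at most 2 kb had −0.44 and −0.31. Within LM1 the genes over 12 kb were 0.23 above their group mean in replicate 2 and 0.21 below it in replicate 3, the tumours with the highest and lowest *Dnmt3a*, *Tet2* and *Tet3*. In a fit with each tumour's trend on exon length as an offset, added after the data were seen, *Tet2* kept its calls (2.94 in LM9 versus HR1 and 1.85 in LM9 versus LM1). *Tet3* in LM9 came to 0.57 and lost its call (edgeR adjusted p = 0.0638). *Dnmt3a* came to −0.92 in LM9 and then passed the test (edgeR adjusted p = 0.00916), with −0.57 in LM1 (adjusted p = 0.0628). *Dnmt1* in LM9 came to 0.77 and *Ezh2* to 0.75, both still called.

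**Figure D1:**
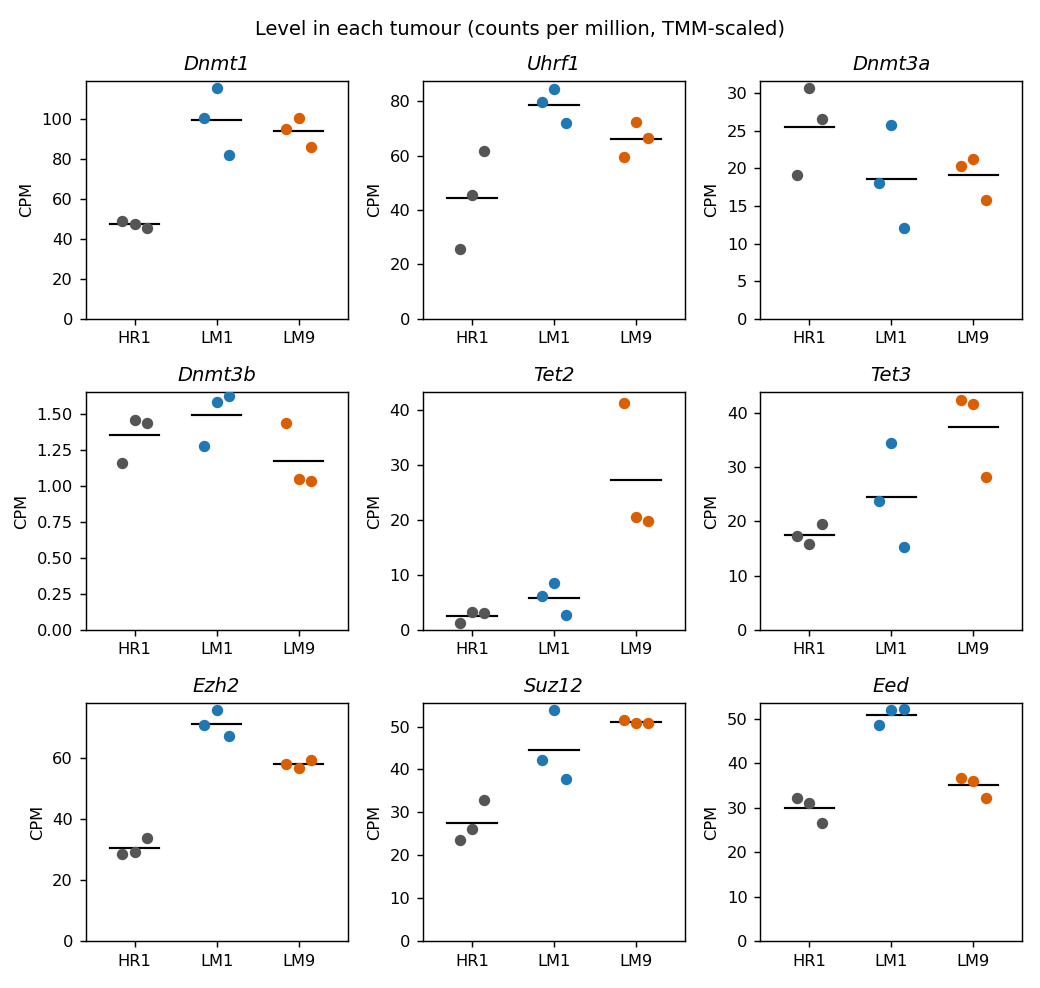
Level of the 9 genes in each tumour, in CPM on axes that start at 0. Points are tumours in the order of their replicate number, and lines are the means of the 3 tumours of a group. *Dnmt1* and *Ezh2* of all LM tumours lie above HR1, *Eed* is high in LM1 alone, and *Tet2* reaches 19.8 to 41.3 CPM in LM9.

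The PRC2 core. *Ezh2*, the catalytic subunit, was higher in both LM models with little spread. Its level was 28.5, 29.3 and 33.6 CPM in HR1, 70.8, 75.7 and 67.4 CPM in LM1 and 58.1, 56.8 and 59.5 CPM in LM9. The 3 groups did not overlap, with LM1 highest. The log2 change from HR1 was 1.23 (SE 0.12, edgeR adjusted p = 0.000259) in LM1 and 0.93 (SE 0.12, edgeR adjusted p = 0.000676) in LM9, called in all 9 fits that left out a tumour. LM9 was below LM1 by a log2 fold change of −0.29 (SE 0.12), which missed the threshold (edgeR adjusted p = 0.105) but passed it without HR1 replicate 1 (−0.30, adjusted p = 0.0398) and under DESeq2 (adjusted p = 0.0392). It also passed with only the 6 tumours compared (edgeR adjusted p = 0.0221) and with the offset for exon length (−0.43, edgeR adjusted p = 0.0182).

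*Suz12*, the scaffold subunit, was higher in both as well. It had 23.5, 26.2 and 32.9 CPM in HR1, 42.2, 53.9 and 37.8 CPM in LM1 and 51.5, 50.9 and 50.9 CPM in LM9. Each LM tumour was above each HR1 tumour. *Suz12* rose by 0.70 on the log2 scale in LM1 (SE 0.18, edgeR adjusted p = 0.0155) and by 0.89 in LM9 (SE 0.18, edgeR adjusted p = 0.00467). The LM1 call was lost without LM1 replicate 2 (0.53, edgeR adjusted p = 0.0621) and with only the 6 tumours compared (0.69, adjusted p = 0.0652). The LM9 call was made in all 9 fits that left out a tumour.

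*Eed*, which binds the mark and stimulates the enzyme, followed another pattern. It was 32.1, 31.0 and 26.5 CPM in HR1 and 48.6, 52.1 and 52.3 CPM in LM1, but 36.8, 36.1 and 32.3 CPM in LM9. LM1 stood clear of both other groups, and all LM9 tumours were just above HR1. On the log2 scale it stood 0.77 over HR1 in LM1 (SE 0.13, edgeR adjusted p = 0.00248) and 0.23 in LM9 (SE 0.13, edgeR adjusted p = 0.174). LM9 differed from LM1 by −0.54 (SE 0.13, edgeR adjusted p = 0.0193). This difference was −0.49 to −0.59 when a tumour was left out, but the call was lost without any 1 of the 6 LM tumours (edgeR adjusted p = 0.0537 to 0.0874). An antisense gene, E230029C05Rik, overlaps 6.82% of the *Eed* exons (for *Suz12* and *Ezh2* such overlaps cover 3.6% and 2.61%), and the strand setting of the counting is not given in the sources used here.

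*Ezh1*, the alternative catalytic subunit, which is known to prevail in cells that do not divide, was high in LM9. It had 57.0, 46.2 and 37.0 CPM in HR1, 30.8, 34.3 and 37.2 CPM in LM1 and 98.4, 81.5 and 89.2 CPM in LM9. LM9 lay above all other tumours. Relative to HR1, *Ezh1* was 0.94 higher on the log2 scale in LM9 (SE 0.18, edgeR adjusted p = 0.00354), and its difference was −0.46 in LM1 (SE 0.17, edgeR adjusted p = 0.0709), which passed the test without HR1 replicate 3 (−0.60, adjusted p = 0.0197). LM9 exceeded LM1 by 1.40 (SE 0.18, edgeR adjusted p = 0.00183). Per kilobase of exons the ratio of *Ezh2* to *Ezh1* was 0.556, 0.706 and 1.01 in HR1, 2.56, 2.46 and 2.02 in LM1 and 0.658, 0.777 and 0.744 in LM9. LM1 thus stood above both other groups, while LM9 lay within the range of HR1 although its *Ezh2* was higher. *Uhrf1* and its relative *Uhrf2* gave a like order of LM1 over LM9, at 2.71 to 3.62 and 1.22 to 1.81, but here HR1, at 0.935 to 1.14, was below both.

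**Figure D2:**
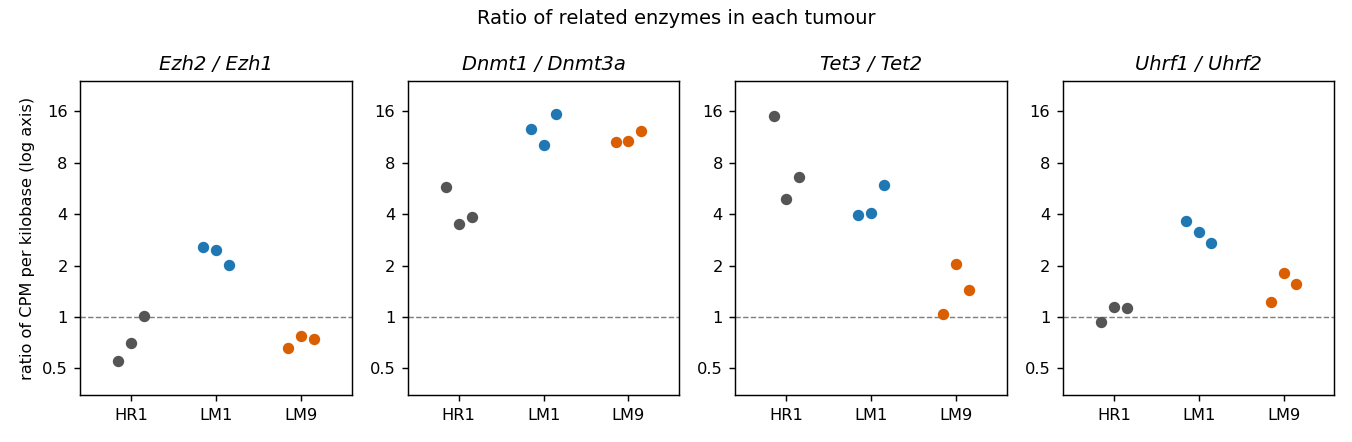
Ratio of related enzymes in each tumour, in CPM per kilobase of exons, on a log axis that is the same in all 4 panels. Points are tumours in the order of their replicate number, and the dashed line marks equal levels. *Ezh2* exceeds *Ezh1* 2.02 to 2.56 times in LM1 and is below it in LM9.

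The histone binders RBBP4 and RBBP7, which PRC2 shares with other chromatin complexes, were lower in LM9. *Rbbp4* had 305 to 399 CPM in HR1, 353 to 418 CPM in LM1 and 209 to 256 CPM in LM9, and *Rbbp7* had 202 to 292, 304 to 343 and 179 to 194 CPM. Both were below all other tumours in each LM9 tumour. In LM9 versus LM1 the log2 fold change was −0.67 for *Rbbp4* (SE 0.15, edgeR adjusted p = 0.0171), lost without LM1 replicate 1 or 3 or LM9 replicate 1 or 3 (adjusted p = 0.0549 to 0.08). For *Rbbp7* it was −0.78 (SE 0.16, edgeR adjusted p = 0.0104), lost without LM9 replicate 1 (−0.76, adjusted p = 0.0513). In LM9 versus HR1 *Rbbp4* had −0.61 (SE 0.15, edgeR adjusted p = 0.013), lost without LM9 replicate 1 (−0.53, adjusted p = 0.0593). *Rbbp7* had −0.47 (SE 0.16, edgeR adjusted p = 0.039), a call kept in only 2 of the 9 fits that left out a tumour, those without HR1 replicate 1 or 2. It was also lost with the replicate block, with only the 6 tumours compared and with the offset for exon length (edgeR adjusted p = 0.0505, 0.0849 and 0.104).

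In counts, 5 of the 9 genes rose in LM1 versus HR1 (*Dnmt1*, *Uhrf1*, *Ezh2*, *Suz12* and *Eed*) and none fell. Over all genes tested 35.5% were called in this comparison, 16.7% higher and 18.7% lower. In LM9 versus HR1 also 5 of 9 rose (*Dnmt1*, *Tet2*, *Tet3*, *Ezh2* and *Suz12*) and none fell, against 42.3% of all genes called, 20.4% higher and 21.9% lower. With both LM models against HR1 7 of 9 rose, all but *Dnmt3a* and *Dnmt3b*, against 43.6% of all genes, 19.9% higher and 23.6% lower. These comparisons share the HR1 tumours. In LM9 versus LM1 2 of 9 were called, *Tet2* higher and *Eed* lower, against a background of 22%, with 11.5% higher and 10.6% lower, so this share is near that of all genes. With a tumour left out, this comparison called 1150 genes and 0 of the 9 (without LM1 replicate 1) to 6413 genes and 3 of the 9 (without HR1 replicate 1), and 7709 genes were called with only the 6 LM tumours. The pooled calls of *Uhrf1* (0.70, edgeR adjusted p = 0.0433) and *Tet3* (0.79, edgeR adjusted p = 0.0366) were lost in 7 and 6 of the 9 fits that left out a tumour. That of *Uhrf1* was also lost with library size only (0.73, edgeR adjusted p = 0.051). With the offset for exon length *Tet3* came to 0.46 and lost its pooled call (edgeR adjusted p = 0.0815), while *Dnmt3a* came to −0.745 and passed the test (edgeR adjusted p = 0.00973).

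The median log2 fold change of the 9 genes was 0.77 in LM1 and 0.89 in LM9 versus HR1, beside −0.04 and −0.05 over all genes. Every call versus HR1 was also made without HR1 replicate 1, where *Dnmt1* was 1.11 in LM1 and 1.02 in LM9, *Ezh2* 1.19 and 0.89, and *Tet2* 3.13 in LM9. Exact two-sided permutation tests cannot go below 0.1 for 3 against 3 tumours. For the 6 LM against the 3 HR1 tumours the smallest possible value is 0.0238, and it was reached by *Dnmt1*, *Ezh2*, *Suz12* and *Eed*, whose LM tumours were all above HR1. Over all genes tested the LM and HR1 tumours did not overlap for 29.9%, with the LM tumours higher for 15.6%.

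**Figure D3:**
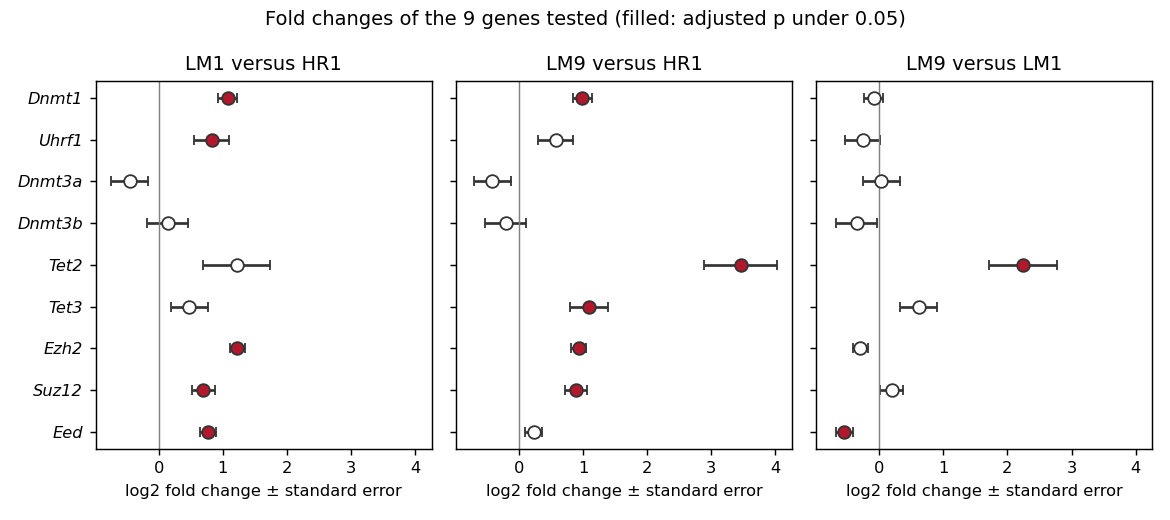
Log2 fold change of the 9 genes in 3 comparisons, with bars of 1 standard error from the edgeR fit. Filled points have an adjusted p under 0.05. *Dnmt1*, *Ezh2* and *Suz12* are filled in both comparisons with HR1, and *Tet2* and *Eed* are the filled genes between the LM models.

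Levels per kilobase of exons, averaged over the 9 tumours, were highest for *Uhrf1* (14.8 CPM per kilobase), *Dnmt1* (10.9) and *Eed* (10.1), followed by *Suz12* (8.31) and *Ezh2* (7.98). *Tet3* (1.58), *Dnmt3a* (1.27), *Tet2* (0.699) and *Dnmt3b* (0.263) were lower. Neighbours in this order changed place between groups, as in LM9 *Suz12* (10.3 ± 0.0707, n = 3) lay above *Ezh2* (8.71 ± 0.205, n = 3) and *Eed* (9.16 ± 0.628, n = 3), whereas in LM1 *Eed* (13.3 ± 0.541, n = 3) led the PRC2 core. The tested gene whose log2 CPM followed each gene most closely over the 9 tumours was *Wdr62* for *Dnmt1* (Pearson's r 0.996), *Ccnk* for *Ezh2* (0.996), *Zc3h3* for *Tet2* (0.993), *Ssrp1* for *Uhrf1* (0.985) and *Nomo1* for *Suz12* (0.984). For *Eed* it was *Nkx1-2* (0.983), for *Tet3* *Crebbp* (0.978), for *Dnmt3a* *Tgfbrap1* (0.924) and for *Dnmt3b* *Atp13a1* (0.891). These are the highest of all tested genes and, with 3 groups behind 9 points, describe the shared group pattern.

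The wider pathway was described by 4 lists, of which 75 of 79 genes were tested: partners and readers of DNA methylation, PRC2 accessory subunits, subunits of Polycomb repressive complex 1 (PRC1) and enzymes that oppose Polycomb. In LM1 versus HR1 27 of the 75 were called, 17 higher and 10 lower, a share of 36% beside 35.5% of all genes. In LM9 versus HR1 34 were called, 25 higher and 9 lower (45.3% beside 42.3%), and in LM9 versus LM1 19, 11 higher and 8 lower (25.3% beside 22%). These shares are near those of all genes. They also depended on single tumours, with 16 genes called in LM1 without LM1 replicate 1 and 43 without HR1 replicate 1, 18 in LM9 without LM9 replicate 1, and 5 to 35 between the LM models. The median log2 fold change was 0.27 in LM1 and 0.36 in LM9.

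Of the partners and readers 8 of 27 were called in LM1, 4 in each direction, and 10 in LM9, 6 higher and 4 lower. These shares, 29.6% and 37.0%, were below the 35.5% and 42.3% of all genes. *Zbtb38*, which encodes a protein that binds methylated DNA, was higher in both, by 1.77 in LM1 (SE 0.35, edgeR adjusted p = 0.00566) and 2.46 in LM9 (SE 0.36, edgeR adjusted p = 0.00123) on the log2 scale. *Zbtb4*, another such reader, was lower in LM1 by −1.56 (SE 0.20, edgeR adjusted p = 0.000792), at 13.2 to 15.4 CPM against 30.9 to 53.8 CPM in HR1 and 27.5 to 28.2 CPM in LM9. In LM9 versus HR1 its log2 fold change was −0.59 (SE 0.20, edgeR adjusted p = 0.0386). *Idh1*, which makes the cofactor of the TET enzymes, was lower in both, with log2 fold changes of −0.86 in LM1 and −1.01 in LM9 (edgeR adjusted p = 0.00354 and 0.0015). *Gadd45g*, linked to active demethylation and to stress responses, was 1.99 higher in LM1 than in HR1 (edgeR adjusted p = 0.0003), and LM9, at 150.5 to 221 CPM, lay between the 84.7 to 117 CPM of HR1 and the 383 to 483 CPM of LM1.

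Of 10 PRC2 accessory subunits tested, 3 were called in LM1, 2 higher and 1 lower, and 7 in LM9, 5 higher and 2 lower, shares of 30% and 70% beside 35.5% and 42.3% of all genes. *Phf1*, whose product helps PRC2 bind chromatin, fell in LM1 by 1.47 on the log2 scale (SE 0.17, edgeR adjusted p = 0.00046), with 16.7 to 18.7 CPM against 41.4 to 55.5 CPM in HR1 and 37.8 to 49.8 CPM in LM9. *Aebp2*, a subunit of the variant complex with JARID2, rose in LM9 by 1.05 (SE 0.21, edgeR adjusted p = 0.00526), and *Lcor*, whose locus also encodes a PRC2 cofactor, rose by 2.54 (SE 0.65, edgeR adjusted p = 0.0142), from 0.0998 to 0.798 CPM in HR1 to 2.68 to 3.86 CPM. *Epop*, an inhibitory partner of PRC2, was lower in LM9 than in LM1 by −2.00 (SE 0.40, edgeR adjusted p = 0.00994).

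PRC1 is recruited to the PRC2 mark and ubiquitinates histone H2A, and transcripts of its catalytic subunits were lower in the LM models. Of 26 subunits 12 were called in LM1, 8 higher and 4 lower, and 11 in LM9, 8 higher and 3 lower, shares of 46.2% and 42.3% where all genes had 35.5% and 42.3%. *Ring1*, a catalytic subunit, fell from 41.2, 43.0 and 37.8 CPM in HR1 to 20.1, 15.3 and 19.7 CPM in LM1 and 17.2, 17.5 and 16.2 CPM in LM9. HR1 did not overlap with either LM group, and the log2 fold changes were −1.15 (SE 0.15, edgeR adjusted p = 0.000858) and −1.26 (SE 0.15, edgeR adjusted p = 0.000493). *Rnf2*, the other catalytic subunit, fell by 0.63 in LM9 (SE 0.14, edgeR adjusted p = 0.00857), and all LM1 tumours, at 33.8 to 36.9 CPM, were also below the 48.3 to 64.0 CPM of HR1. *Cbx7*, which encodes a subunit that binds the PRC2 mark, fell in LM1 (−1.22, SE 0.24, edgeR adjusted p = 0.00557). *L3mbtl2*, of a variant PRC1, rose in both (1.21 and 0.91, edgeR adjusted p = 0.00484 and 0.0135).

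Among 12 enzymes that oppose Polycomb 4 were called in LM1, 3 higher and 1 lower, and 6 in LM9, all higher, which is 33.3% and 50% beside 35.5% and 42.3% of all genes. *Kdm6b*, an eraser of the PRC2 mark, was at 20.7, 19.5 and 16.01 CPM in HR1, 28.3, 48.0 and 17.3 CPM in LM1 and 81.3, 81.3 and 52.3 CPM in LM9. Its log2 fold change in LM9 versus HR1 was 1.93 (SE 0.35, edgeR adjusted p = 0.00328). *Kdm6a*, the other eraser, fell in LM1 by 0.77 (SE 0.16, edgeR adjusted p = 0.00742). *Nsd2*, whose product methylates another lysine of histone H3, rose in LM1 by 1.202 (SE 0.17, edgeR adjusted p = 0.00108), and LM9 was also above HR1, at 158 to 174 CPM against 69.7 to 94.1 CPM. *Kmt2d* and *Kmt2b*, writers of an activating mark, rose in LM9 by 1.55 and 1.31 (edgeR adjusted p = 0.006 and 0.00989), values that came to 0.98 and 0.97 with the offset for exon length. *Kmt2d* was also higher in LM1 than in HR1 (1.26, SE 0.32, edgeR adjusted p = 0.0161). The calls given here for named genes of the 4 lists, *Rbbp4* and *Rbbp7* aside, were made in all 9 fits that left out a tumour. This does not cover *Kmt2d* in LM1 and *Zbtb4* in LM9, for which such fits are not given.

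**Figure D4:**
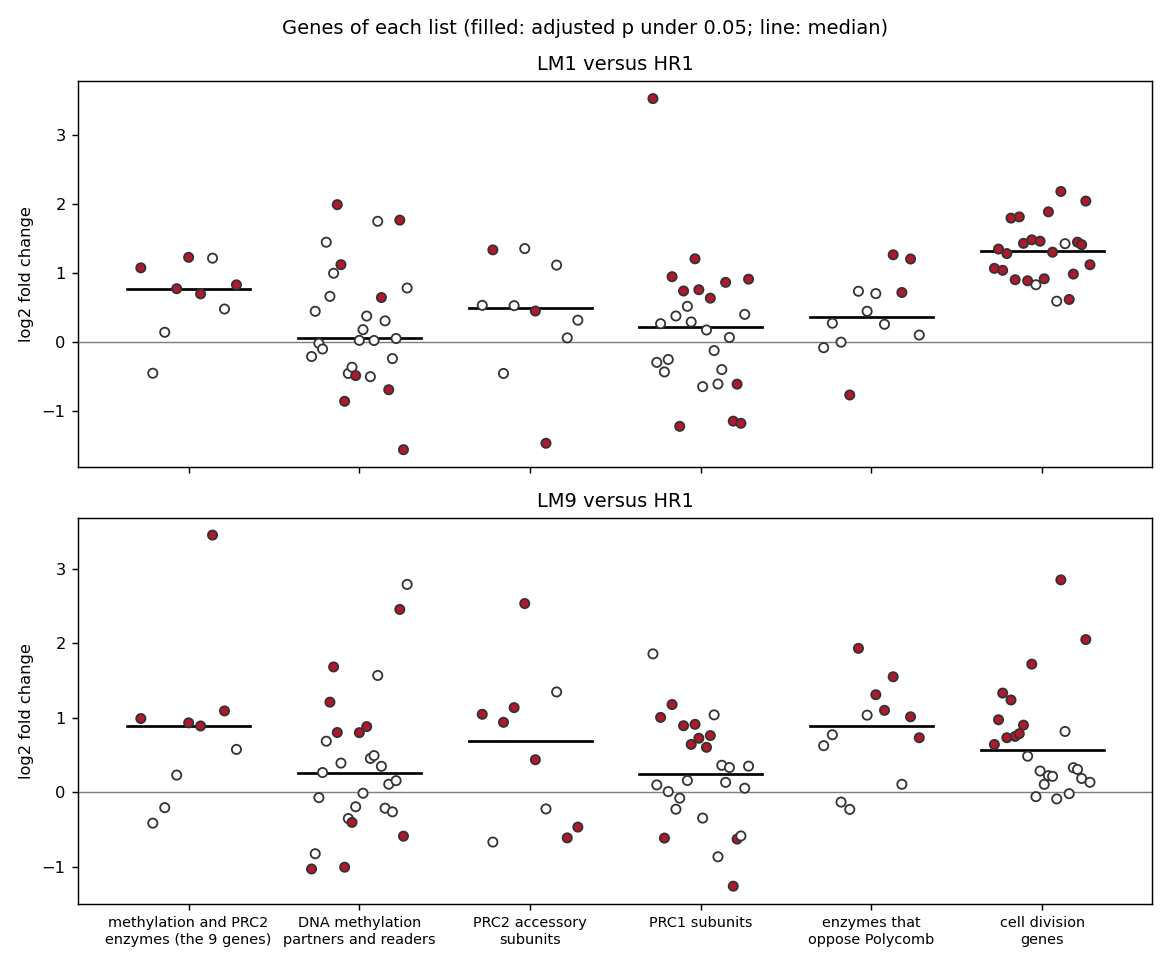
Log2 fold change of every tested gene of 6 lists in LM1 and in LM9 versus HR1. Points are genes in alphabetical order, filled where the adjusted p is under 0.05, and lines are list medians. The cell division genes have a median of 1.32 in LM1 and 0.56 in LM9, and the Polycomb and methylation lists hold rises and falls.

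Cell division genes were looked at beside *Dnmt1*, *Uhrf1* and *Ezh2*. Of 24 tested, 21 rose in LM1 versus HR1 and 11 in LM9, none fell, and the median log2 fold change was 1.32 and 0.56. The share called was 87.5% in LM1 beside 35.5% of all genes. In LM9 it was 45.8% beside 42.3%, near the background of both directions together. All these calls were rises, where 16.7% of all genes in LM1 and 20.4% in LM9 were called higher. Between the LM models 9 of 24 (37.5%) were lower in LM9 and none higher, where 22% of all genes were called and 10.6% were lower. The list median there was −0.62, and 4 of the 24 had a log2 fold change above 0. Their summed level was 1408 to 2165 CPM in HR1, 4079 to 4280 CPM in LM1 and 2525 to 2867 CPM in LM9, and the part of this in the levels of *Dnmt1*, *Uhrf1* and *Ezh2* was not tested. *Mcm5*, a part of the replicative helicase, stood 1.89 above HR1 in LM1 on the log2 scale (SE 0.21, edgeR adjusted p = 0.000453), and LM9 differed from LM1 by −1.66 (SE 0.21, edgeR adjusted p = 0.00191). *Top2a*, the topoisomerase of dividing cells, rose in both (2.04 in LM1 and 2.05 in LM9, edgeR adjusted p = 0.000286 and 0.000203). The largest rise of the list in both was that of *Mki67* (2.18 and 2.85, edgeR adjusted p = 0.00372 and 0.00106). It had 30.4 to 95.6 CPM in LM1 and 98.9 to 125 CPM in LM9. In LM9 versus LM1 *Dnmt1*, *Uhrf1* and *Ezh2* had log2 fold changes of −0.08, −0.25 and −0.29, none past the threshold. Of the E2F and RB family 6 of 10 were called in LM1, 5 higher and 1 lower, and 3 in LM9, all higher, shares of 60% and 30% beside 35.5% and 42.3% of all genes. *E2f8* and *E2f2* rose in both, *E2f8* by 1.96 and 2.29 and *E2f2* by 1.35 and 1.12 (edgeR adjusted p between 0.00286 and 0.00646), and *Rbl2*, of the RB family, fell in LM1 by 1.22 (SE 0.24, edgeR adjusted p = 0.00504).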

How the data were processed

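RNA of sorted GFP-positive cells from 9 tumours (3 each of HR1, LM1 and LM9) was measured by stranded mRNA sequencing with single-end reads. The authors aligned reads to mm10 with STAR and counted them per gene over the union of its exons with QuasR, and the deposited values are these raw counts. Tool versions and the strand setting of the counting are not given in the sources used here. Groups and replicate numbers were taken from the labels.

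Of 14108 genes listed, 14086 passed edgeR's filterByExpr. Counts were scaled with TMM factors (0.9284 to 1.051), and a 3-group model was fitted with edgeR 4.0.16 (robust quasi-likelihood F-test, R 4.3.3), with Benjamini-Hochberg adjustment over all tested genes and a threshold of 0.05. The 4 comparisons were LM1 versus HR1, LM9 versus HR1, LM9 versus LM1 and both LM models versus HR1. Exact two-sided permutation tests were made on log2(CPM + 1) over all splits of the tumours compared. The floor of 3 counts covers counting error only. The test was tried on simulated counts for both LM models versus HR1 over 14086 genes, where 77% of 100 genes changed 4-fold and 40% of 100 changed 2-fold were recovered.

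The members, gene lists and tests were chosen with earlier results of these data known. Beside the members, the genes named were, per list and comparison, at most the 3 largest rises and 3 largest falls among called genes that averaged 1 CPM or more, and the gene most correlated with each member. Outside this rule, *Ezh1* against HR1 (for a ratio), *Cdh1* (a defining epithelial marker under 1 CPM) and *Nfib* (the gene by which the study classed the models, in no list) were named after their values were seen. Gene positions, exon lengths and start windows are on GRCm38. Alternatives were RLE factors, library size only, no filter, at least 1 CPM in 3 tumours, DESeq2 1.42.0, limma-voom (limma 3.58.1), no robust option, only the 6 tumours compared, a block for the replicate number, leaving out any 1 tumour and a minimum of 2-fold. An offset for exon length was added after seeing the data. Correlations of the deviations of same-numbered tumours were −0.117 to 0.162, so the numbers were not taken to pair the tumours.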

Additional observations from a re-analysis of the deposited data

Results flagged for a closer look

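The response of 2 of the 9 genes against HR1 differed between LM1 and LM9 by the test of that difference, edgeR's LM9 versus LM1 contrast, a share of 22.2% beside 22% of all genes. For *Tet2* the LM9 effect exceeded the LM1 effect by 2.24 on the log2 scale (SE 0.54, edgeR adjusted p = 0.0201), with all 3 LM9 tumours above all 3 LM1 tumours. For *Eed* the LM9 effect was smaller, with a difference of −0.54 (SE 0.13, edgeR adjusted p = 0.0193), and all 3 LM9 tumours lay below all 3 LM1 tumours. Both calls depended on which tumours entered the fit, being lost in 3 of 9 fits for *Tet2* and 6 of 9 for *Eed* when a tumour was left out.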

How the results depend on the processing

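Of 675 values of the 9 genes under alternatives, 619 kept their direction and side of the threshold, 38 lost a call, 7 gained one and 11 reversed. No called value of these genes reversed. Reversed were *Dnmt3a* in LM9 versus LM1 with library size only (−0.036) and with the offset for exon length (−0.356), and *Dnmt3b* in both LM models versus HR1 with library size only (0.006). With a tumour left out, *Dnmt1* in LM9 versus LM1 ranged from −0.204 to 0.046, *Dnmt3a* there from −0.198 to 0.351, and *Dnmt3b* in both LM models versus HR1 from −0.125 to 0.025. Fits with only the 6 tumours compared, which have fewer samples, called 3008 genes, 3 of the 9 genes and 16 of the wider pathway in LM1 versus HR1, and 7709 genes and 42 of the wider pathway in LM9 versus LM1. Requiring 2-fold left 3086 genes, 2 of the 9 and 13 of the wider pathway in LM1 versus HR1, 3606, 2 and 16 in LM9 versus HR1, 1584, 1 and 7 in LM9 versus LM1, and 3335, 3 and 12 in both versus HR1. With a tumour left out, LM1 versus HR1 gave 3121 (without LM1 replicate 1) to 7453 genes (without HR1 replicate 1), 3 to 5 of the 9 and 16 to 43 of the wider pathway. LM9 versus HR1 gave 3768 (without LM9 replicate 1) to 7862 (without HR1 replicate 1), 4 to 6 and 18 to 44. LM9 versus LM1 gave 1150 (without LM1 replicate 1) to 6413 (without HR1 replicate 1), 0 to 3 and 5 to 35. Both versus HR1 gave 4928 to 7902, 5 to 7 and 23 to 46. The fit with a replicate block called 5, 5, 2 and 6 of the 9 genes in the 4 comparisons and 4204, 5078, 2295 and 5234 genes in all. It ended the call of *Tet3* in both LM models versus HR1 (0.72, edgeR adjusted p = 0.0596) and no other call of the 9 genes. The cause of these shifts was not tested. Depth limits *Dnmt3b* most, with 35 to 70 counts per tumour.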

Other observations

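Lists of genes on which these enzymes are known to act held rises and falls against HR1. In LM9 versus LM1 most calls were lower, at 2 of 2 germline, 4 of 5 imprinted and 5 of 5 Polycomb target genes called, with list medians of −0.93, −0.88 and −0.19. The shares called there were 28.6%, 45.5% and 20.8%, beside 22% of all genes (11.5% higher and 10.6% lower). With a tumour left out, this comparison called 1150 to 6413 genes. Of 20 germline genes that DNA methylation keeps silent in body cells, 7 were tested. In LM1 versus HR1 2 rose and 2 fell, and in LM9 versus HR1 2 rose and 3 fell, shares of 57.1% and 71.4% beside 35.5% and 42.3% of all genes. *Rhox5*, a homeobox gene of the testis, had 0.266, 0.495 and 0.257 CPM in HR1, 8.72, 8.45 and 12.6 CPM in LM1 and 1.46, 2.27 and 2.09 CPM in LM9. The 3 groups did not overlap, and *Rhox5* rose on the log2 scale by 4.84 in LM1 (edgeR adjusted p = 0.000143) and 2.49 in LM9 (edgeR adjusted p = 0.00139). *Mov10l1*, a helicase of the piRNA pathway, rose by 3.11 and 2.69 (edgeR adjusted p = 0.000389 and 0.000587), and *Brdt*, a testis bromodomain gene, fell by 2.04 and 1.46 (edgeR adjusted p = 0.00249 and 0.0086). *Fkbp6* fell further, by 4.93 and 9.32 (edgeR adjusted p = 0.0151 and 0.00326), but HR1 replicate 1 had only 0.33 CPM. *Tex19.1* had 22.3, 3.58 and 0.283 CPM in HR1, 68.0 to 82.55 CPM in LM1 and 0.405 to 0.94 CPM in LM9. Its log2 fold change was −3.77 in LM9 versus HR1 and −6.84 in LM9 versus LM1 (edgeR adjusted p = 0.0317 and 0.00944). Of 21 imprinted genes 11 were tested, of which 3 rose and 2 fell in LM1 and 1 rose and 3 fell in LM9, shares of 45.5% and 36.4% beside the same background. *Phlda2*, a gene of placental growth, rose in LM1 by 2.80 (edgeR adjusted p = 0.0041), with 12.6 to 13.9 CPM against 0.669 to 3.09 CPM in HR1 and 1.44 to 2.84 CPM in LM9. *Igf2r*, the receptor that clears IGF2, fell in LM1 by 1.90 (edgeR adjusted p = 0.00987). *Igf2*, a growth factor, was called lower in both, but its HR1 tumours had 0.233, 2.18 and 51.5 CPM, and its values rest on HR1 replicate 3. Without that tumour the LM1 log2 fold change of −5.98 came to −2.11 and the LM9 value of −7.50 to −3.63. The LM1 call was lost in 5 of the 9 fits that left out a tumour, those without HR1 replicate 3, any of the LM1 replicates or LM9 replicate 1. The LM9 call was lost in 2, without LM9 replicate 1 or 2, and both calls were lost with limma-voom (adjusted p = 0.235 and 0.148). The LM1 call was also lost with the replicate block (−4.13, edgeR adjusted p = 0.0614) and with only the 6 tumours compared (edgeR adjusted p = 0.068).

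Among 24 tested genes known as Polycomb targets, 3 rose and 2 fell in LM1 and 5 rose and 6 fell in LM9, a share of 20.8% and 45.8% beside 35.5% and 42.3% of all genes. *Sox9*, a transcription factor of progenitor cells, had 6.84 to 17.4 CPM in HR1, 103 to 253 CPM in LM1 and 206 to 395 CPM in LM9. Its log2 fold change was 3.91 in LM1 and 4.76 in LM9 (edgeR adjusted p = 0.000604 and 0.000253). *Irx3*, a homeobox gene, rose by 1.08 and 0.94 (edgeR adjusted p = 0.00739 and 0.0112). Other targets fell. *Gdf6*, a ligand of the BMP family, had 47.5, 36.3 and 53.8 CPM in HR1, 0.0762 to 0.189 CPM in LM1 (3 to 9 counts) and 0, 0 and 1 counts in LM9 (edgeR adjusted p = 2.9e-05 and 1.02e-05). *Foxa2*, a transcription factor of endoderm, had 33.8, 4.84 and 3.83 CPM in HR1 and 0.451 to 0.810 CPM in LM9, a log2 fold change of −4.62 (edgeR adjusted p = 0.00379) that was −2.91 without HR1 replicate 1. *Fgf9*, a growth factor, had 36.7, 1.08 and 2.57 CPM in HR1 and 0 to 3 counts in LM9 (edgeR adjusted p = 0.00443, and 0.0566 with limma-voom). The calls of *Rhox5*, *Mov10l1*, *Brdt*, *Phlda2*, *Igf2r*, *Sox9*, *Irx3*, *Gdf6*, *Foxa2* and *Fgf9* given here were made in all 9 fits that left out a tumour. Methylation of DNA or histones was not measured in these samples.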
